A study of Homo sapiens with 21 samples.

Results

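The genes described here are 10 transcription factors that set and keep epithelial identity: TP63, GRHL1, GRHL2, GRHL3, OVOL1, OVOL2, KLF4, KLF5, ELF3 and EHF. They were chosen by gene symbol, mapped from the gene identifiers of the tables. Earlier results of these data were known when they were chosen. All 10 were listed among the 19505 genes of the FADU knockdown table and the 18316 genes of the FADU overexpression table, 9 among the 15719 genes of the FADU mutant table, which lacked GRHL3, and 4 among the 17232 genes of the BFTC909 knockdown table, which held TP63, GRHL1, KLF4 and KLF5. After a filter on low values, 10, 9 and 3 of them could be tested in the FADU knockdown, FADU overexpression and BFTC909 knockdown tables.

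In total, 21 RNA-seq libraries were used, from FADU, a human head and neck cancer line, and BFTC909, a transitional cell carcinoma line of the renal pelvis. In each line, cells with a scrambled control (Scr-si) were kept at 18% O2 (normoxia) or 1% O2 (hypoxia) for 18 h and cells with an interfering vector against METTL4 (METTL4-si) were kept in hypoxia, with 2 libraries per group. METTL4 is the methyltransferase that the study links to N6-methyladenine in nuclear DNA. In normoxic FADU cells, stable transfectants carried an empty control vector, METTL4 (METTL4-OE) or the long noncoding RNA RP11-390F4.3 (RP11-390F4.3-OE), again with 2 libraries per group; how many clones stood behind a group was not given in the sources used here. In hypoxic FADU cells, 1 library of CRISPR control cells stood beside 1 library from each of 2 single-cell lines whose METTL4 had been mutated at its catalytic motif by prime editing. Nothing in the labels says that the libraries of a group came from separate cultures, so the tests measure the spread between libraries, which may be technical.

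Epithelial identity factors form a network. TP63 keeps the basal layer of stratified epithelia, grainyhead-like (GRHL) factors keep the genes of cell junctions active, OVOL factors repress mesenchymal regulators such as ZEB1, Krüppel-like factors balance proliferation and differentiation, and ELF3 and EHF are members of the ETS family that are largely restricted to epithelia. During epithelial-mesenchymal transition (EMT), which the study addressed under hypoxia, the opposing SNAI, ZEB and TWIST factors repress epithelial genes, and many of the factors described here are known to be lost.

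The deposited values are CPM normalized by the TMM method, here called values. METTL4 was checked first. In FADU cells its values were 31.9 and 30.8 in normoxia, 26.6 and 25.3 in hypoxia and 24.2 and 27.1 in the libraries labelled METTL4-si, so METTL4 RNA was not lower in those libraries than in their controls (log2 difference -0.02 ± 0.09 SE). In BFTC909 cells it was 19.0 and 15.6 in hypoxia and 14.4 and 12.2 in the libraries labelled METTL4-si (adjusted p = 0.0717). In METTL4-OE cells it was 158 and 139 against 35.4 and 32.7 with the control vector. RP11-390F4.3, identified by the position of the study's promoter primers on hg19, was 23.9 and 25.1 in RP11-390F4.3-OE, 21.8 and 21.7 in METTL4-OE and 12.9 and 13.4 with the control vector, and the columns of RP11-390F4.3-OE were assigned by elimination. CA9, a standard target of hypoxia, was 14.1-fold higher in hypoxic than in normoxic FADU cells and 71.9-fold higher in BFTC909 cells. In the libraries labelled METTL4-si, its mean was 2.05 in FADU cells, against 34.4 in hypoxic and 2.44 in normoxic Scr-si cells. In BFTC909 cells it was 5.69, against 55.1 and 0.77. In normoxic FADU cells it was 0.83 with the control vector, 9.27 in METTL4-OE and 13.4 in RP11-390F4.3-OE. The mutant clones had a mean of 12.8 against 29.8 in their control. The cause of these differences was not tested.

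In FADU libraries, 9 of the 10 squamous epithelium markers were listed and all 9 had values of 1 or more in each library, with KRT5 the highest. Most markers of a differentiated urothelium were not listed for BFTC909 libraries. Only GATA3, PPARG and UPK3B of 8 such markers were listed. PPARG ran from 10.7 to 28.2, and UPK3B stayed below 1. BFTC909 libraries also held PAX8 at 322 to 384, the only 1 of 4 kidney tubule markers that was listed. COL1A2, among the 6 of 8 fibroblast markers that were listed, was at 805 to 3755. Some libraries stood apart. The 7 listed luminal breast markers summed to 731 in FADU METTL4-si replicate 1 and 186 in FADU normoxia replicate 1, and to between 57.6 and 91.7 in the other 4 libraries, in which TFF1 was at 0. In BFTC909 METTL4-si replicate 2, GATA3 was at 128, against 0.57 to 0.96 in the other 5 libraries. In RP11-390F4.3-OE replicate 2 the sum of 5 listed luminal breast markers was 105, against 56.9 to 72.5 in the other 5. The part of these transcripts in the results below was not tested. For most comparisons with such a library in a compared group, results for factors and counts of list genes are given with and without it. Other comparisons of the same table share its spread, and their list counts are not given without it.

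The first comparison asked what 18 h of hypoxia did to the factors in FADU cells. Of the 10 factors, 5 rose (TP63, GRHL1, OVOL1, KLF4 and EHF), 2 fell (GRHL3 and ELF3) and 3 were not called (GRHL2, OVOL2 and KLF5). Following the criterion of the study, a call needed an unadjusted limma p under 0.05 and a change of at least 1.3-fold. Of all 16324 genes tested, 12.4% were called higher and 12.5% lower. The median log2 change of the 10 factors was 0.26, and that of all genes was -0.03.

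TP63, on chromosome 3 (hg19 chr3:189349178-189615065), had values of 195 and 206 in normoxia and 306 and 330.3 in hypoxia. Both hypoxic libraries were above both normoxic ones, and the mean was 1.59-fold higher (log2 change 0.66 ± 0.12 SE, adjusted p = 0.0122). In such bulk samples, fewer cells of a type and less RNA per cell cannot be told apart. TP63 has one start that yields proteins with a transactivation domain and another that yields the ΔN forms of basal cells, and a gene-level value does not separate them.

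Among the grainyhead-like factors, GRHL1 (hg19 chr2:10091822-10142405) was 8.56 and 8.17 in normoxia and 13.5 and 18.1 in hypoxia, without overlap (log2 change 0.83 ± 0.23 SE, adjusted p = 0.0428). GRHL2, the most abundant member of this family, was 165 and 165 in normoxia and 158 and 159 in hypoxia, a log2 change of only -0.05 ± 0.06 SE. GRHL3 (hg19 chr1:24526048-24690972), a factor of epidermal barrier formation, was near the limit of detection at 1.04 and 0.94 in normoxia (25 and 21 reads) and at 0.27 in each hypoxic library (6 reads each). Its fall of 0.64 on the log2 scale met the criterion of the study but not an adjusted p under 0.05 (adjusted p = 0.0796).

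Of the OVOL factors, which are zinc finger repressors, OVOL1 (hg19 chr11:65554534-65564685) rose 2.31-fold, from 3.24 and 2.41 to 5.84 and 7.21 (log2 change 0.98 ± 0.26 SE, adjusted p = 0.0356). OVOL2 (hg19 chr20:17937623-18039832) was 5.36 and 5.45 in normoxia and 4.63 and 4.33 in hypoxia. The hypoxic values lay below the normoxic ones, but the difference was not called (adjusted p = 0.31). OVOL2 overlaps SNX5 on the same strand and MGME1 on the other, both at higher values, and the strand setting of the counting was not given in the sources used here.

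KLF4 (hg19 chr9:110247133-110252763), which promotes terminal differentiation of squamous cells, was 14.3 and 12.4 in normoxia and 18.6 and 22.1 in hypoxia. It rose 1.52-fold (log2 change 0.57 ± 0.15 SE, adjusted p = 0.038). KLF5 (hg19 chr13:73629114-73651679), which is linked to proliferating basal cells, was 126 and 115 in normoxia and 117 and 113 in hypoxia, and these values overlapped.

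Of the epithelium-specific ETS factors, EHF (hg19 chr11:34642640-34684835) had the largest change of the 10. It was 9.22 and 10.5 in normoxia and 32.9 and 33.8 in hypoxia, a 3.37-fold difference with close replicates (log2 change 1.66 ± 0.17 SE, adjusted p = 0.00176). ELF3 (hg19 chr1:201977073-201986311) went the other way, from 97.4 and 102 to 69.8 and 82.5 (log2 change -0.39 ± 0.10 SE, adjusted p = 0.0359). With edgeR on whole reads, with DESeq2 and with median-centred libraries, the fall of ELF3 stayed just under 1.3-fold. ELF3 also lies opposite ELF3-AS1, an antisense RNA with values up to 4.33.

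**Figure D1:**
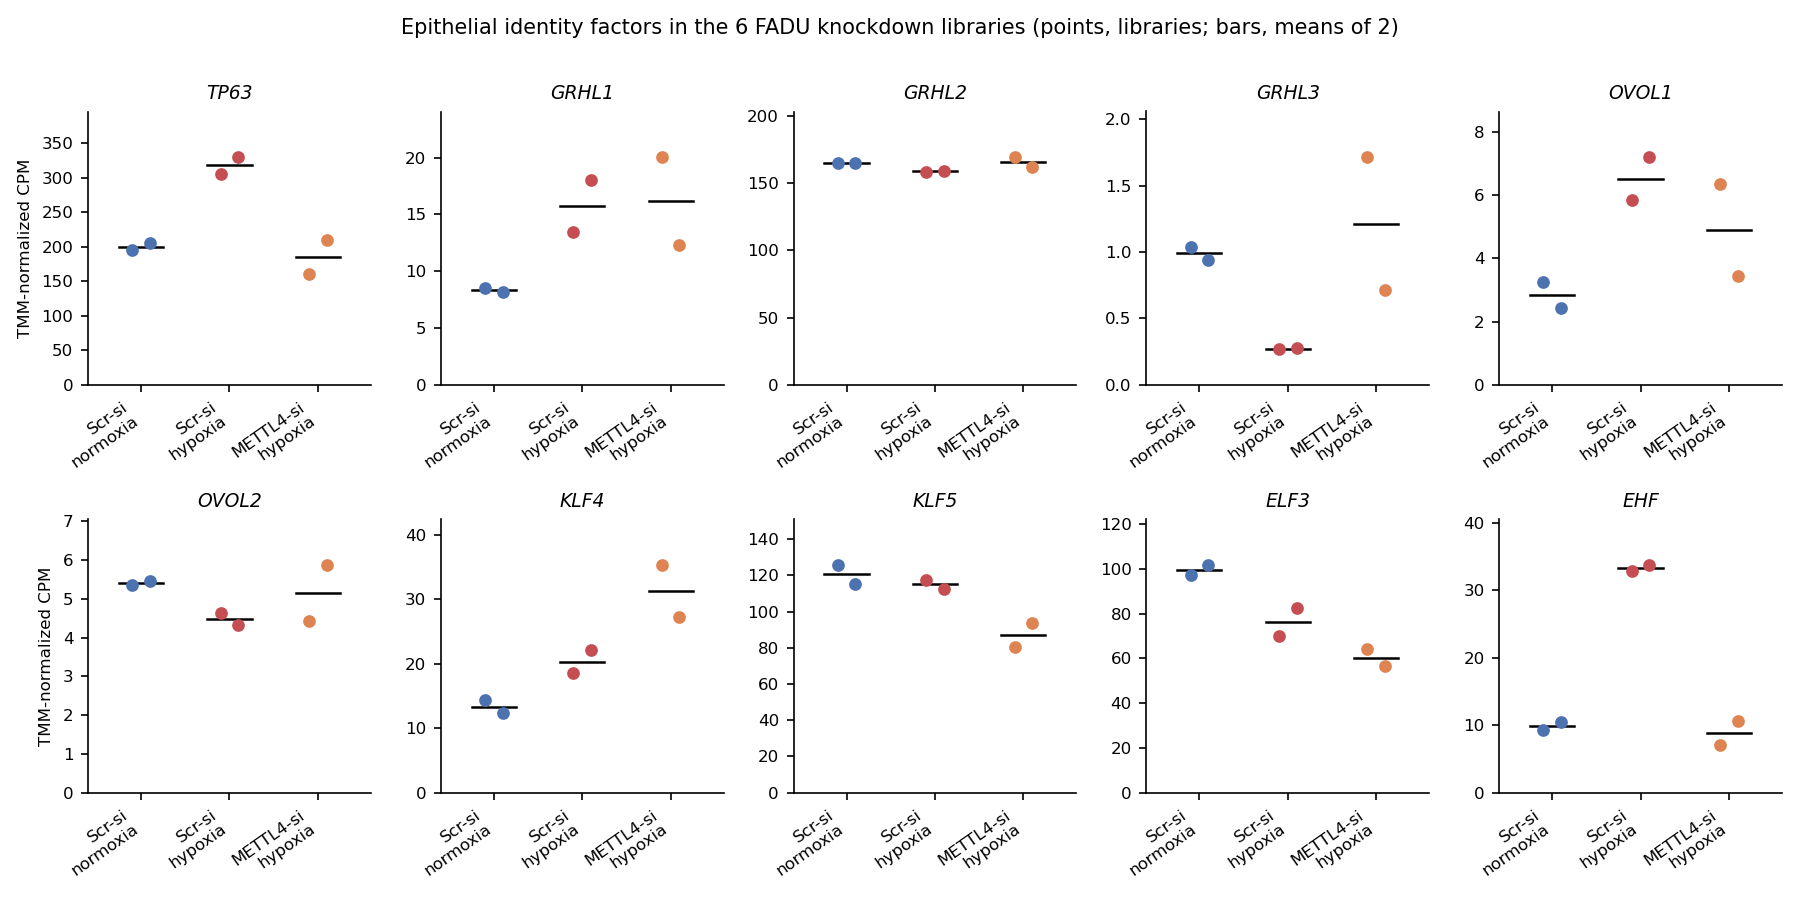
Values (TMM-normalized CPM, linear axes from 0) of the 10 factors in the 6 FADU knockdown libraries, with points for libraries and bars for the means of 2. EHF stood at 32.9 and 33.8 in hypoxia against 7.10 to 10.6 in the other 4 libraries, while GRHL2 stayed between 158 and 169 throughout.

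Leaving out FADU normoxia replicate 1, alone or together with METTL4-si replicate 1, kept the 5 rises and the fall of ELF3 past 1.3-fold. GRHL3 then no longer reached the minimum value for a test. The calls were sensitive to other libraries. Without normoxia replicate 2 the log2 changes were 0.82 for OVOL1, 0.47 for KLF4, -0.36 for ELF3 and -0.68 for GRHL3, none of them called. Without hypoxia replicate 2 they were 0.63 for GRHL1, 0.85 for OVOL1, 0.45 for KLF4 and -0.65 for GRHL3, again not called. The shares of all genes called in these settings are not given.

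Because EHF and KLF4 were among the factors that rose in hypoxia, the sequence before their listed transcript starts is shown, with that of ELF3, which fell, from the RefSeq promoter table of build GRCh38.p14 (the coordinates of these windows are of that build, unlike the hg19 coordinates above). The table held 10 entries for 7 of the factors, and GRHL2, OVOL1 and OVOL2 had none. The 250 bases before each start were searched on both strands for ACGTG, the core of the hypoxia response element that HIF binds, for GCGTG, a variant of it, for CACCTG, an E-box read by SNAI and ZEB factors, and for AACCNGTT, the site of grainyhead-like factors. Capitals mark these letters.
EHF, first entry, chr11:34624007-34624256, plus strand: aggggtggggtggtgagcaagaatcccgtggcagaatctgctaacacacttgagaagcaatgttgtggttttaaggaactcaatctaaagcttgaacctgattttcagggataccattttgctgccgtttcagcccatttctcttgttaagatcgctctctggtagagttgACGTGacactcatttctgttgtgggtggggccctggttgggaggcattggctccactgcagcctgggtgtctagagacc
EHF, second entry, last 30 bases, chr11:34632536-34632565, plus strand: tatcctctctgccaactcCACGTcctagtc
KLF4, chr9:107489770-107490019, minus strand: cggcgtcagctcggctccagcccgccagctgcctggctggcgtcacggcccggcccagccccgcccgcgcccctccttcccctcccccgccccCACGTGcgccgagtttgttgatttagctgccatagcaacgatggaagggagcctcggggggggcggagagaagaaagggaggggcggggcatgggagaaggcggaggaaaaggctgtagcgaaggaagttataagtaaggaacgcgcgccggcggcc
ELF3, 30 bases, chr1:202010455-202010484, plus strand: gaatatgcaaatCACCTGgggccaggagcc
In the EHF windows ACGTG occurred once each, 79 bases before the first start and, on the opposite strand, 12 bases before the second. In the KLF4 window it occurred on both strands in 1 overlapping palindrome, 157 bases before the start. ELF3 held CACCTG 120 bases before the start of its entry. That start lies inside the annotated gene. All 250 bases of the ELF3 window are therefore also untranslated exon of longer transcripts, as are 102 bases of the second EHF window. The listed starts of EHF, KLF4 and GRHL3 also lie inside their annotated genes. For ELF3 and these genes, the sequence before the outermost annotated start was not searched. ACGTG was in 18.5% and CACCTG in 17.5% of the 35116 windows of the table, so such a match is common and is given as a description. The windows of TP63 and GRHL1, which also rose, held none of these 4 motifs, and neither did the 2 windows of KLF5. The only TP63 window lay directly before the annotated gene, so a start further inside TP63 was not searched. GRHL3 held CACCTG 21 bases before its first start and GCGTG, found in 32.2% of windows, 195 bases before its second. AACCNGTT, found in 1.49% of windows, was in none of the 10.

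Around these factors, genes of the same programmes moved in both directions in hypoxic FADU cells. Of 14 other epithelial lineage factors tested, 3 rose and 6 fell, with a median log2 change of -0.38. SOX2, a lineage factor of squamous cells, fell from 10.7 ± 1.16 (SD) to 1.67 ± 0.0463 (adjusted p = 0.000231). Of 22 basal squamous genes, 8 rose and 1 fell (median 0.20). Of 24 junction and polarity genes, 2 rose and 5 fell (median -0.25). CDH1, the cadherin of epithelial adherens junctions, was among the 2 that rose, from 233 ± 28.6 to 381 ± 22.7 (adjusted p = 0.043), and CLDN4, a tight junction claudin, was among those that fell, from 38.3 ± 0.534 to 18.3 ± 3.49 (adjusted p = 0.0133). Of 13 differentiation genes tested, 4 rose and 7 fell (median -0.56). TGM1, the transglutaminase of the cornified envelope, rose from 9.40 ± 0.603 to 32.6 ± 5.24 and KRT13, a keratin of mucosal epithelia, fell from 32.3 ± 0.935 to 10.2 ± 2.22. Of 5 opposing mesenchymal factors tested, SNAI2 rose, from 30.4 ± 2.86 to 54.6 ± 1.15 (adjusted p = 0.0027), and SNAI1 and TWIST2 fell from low values. Without normoxia replicate 1 the counts higher and lower were 3 and 4 for other lineage factors (median -0.15), 8 and 2 for basal squamous genes, 1 and 5 for junction and polarity genes, 4 and 7 for differentiation genes and 1 and 2 for mesenchymal factors.

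The second comparison set the hypoxic FADU libraries labelled METTL4-si against hypoxic Scr-si, the same 2 libraries that stood against normoxia, so that an opposite direction in both comparisons rests in part on shared samples. TP63, KLF5 and EHF fell, KLF4 and GRHL3 rose, and 5 factors were not called. Of all genes, 15.2% were called higher and 16.8% lower. The median change of the 10 factors was -0.16 on the log2 scale, against 0.02 for all genes.

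TP63 was at 161 and 210.2 in the libraries labelled METTL4-si, below both Scr-si libraries at 306 and 330.3 (log2 change -0.79 ± 0.12 SE, adjusted p = 0.00438). EHF was at 7.10 and 10.6, a 3.77-fold fall from 32.9 and 33.8 (log2 change -1.82 ± 0.17 SE, adjusted p = 0.000776). KLF5 was at 80.4 and 93.5 against 117 and 113 (log2 change -0.40 ± 0.09 SE, adjusted p = 0.0153). In each case the groups did not overlap. For TP63 and EHF the values overlapped those of normoxic Scr-si cells, which are given as a description because that difference was not tested.

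KLF4 went the other way. It was 35.3 and 27.3 in the libraries labelled METTL4-si, above hypoxic Scr-si at 18.6 and 22.1, which were themselves above normoxia (log2 change 0.59 ± 0.15 SE, adjusted p = 0.0247). GRHL3 was 1.71 and 0.71 (43 and 16 reads) against 0.27 in both controls (adjusted p = 0.0385). ELF3 was 64.0 and 56.6, below the Scr-si libraries but by less than 1.3-fold (log2 change -0.33 ± 0.10 SE, adjusted p = 0.0459). GRHL1 at 20.1 and 12.3, OVOL1 at 6.34 and 3.43, and OVOL2 at 4.43 and 5.87 overlapped with the Scr-si libraries, and GRHL2 was 169 and 162.

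For 6 of the 10 factors, KLF4 and GRHL3 among them, the higher value came from replicate 1, the library with luminal breast markers, whose part in these results was not tested. Without that library the log2 changes were 0.41 for KLF4, -0.60 for TP63, -1.57 for EHF, -0.42 for ELF3 and -0.76 for OVOL1. KLF5 fell by 0.30, which is less than 1.3-fold, and GRHL3 could not be tested. So the fall of TP63 and EHF and the rise of KLF4 were past 1.3-fold with and without it. Without Scr-si hypoxia replicate 1, KLF4 (0.48) and KLF5 (-0.37) were not called and ELF3 (-0.45) was.

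Of 24 junction and polarity genes, 11 rose and 1 fell (median 0.49). Without replicate 1, the library with luminal breast markers, 11 of 23 rose and 3 fell (median 0.23), and the part of that library in the values of the lists was not tested. CLDN4 went from 18.3 ± 3.49 to 59.4 ± 16.8 (adjusted p = 0.00176) and CGN, which encodes the tight junction protein cingulin, from 9.67 ± 0.967 to 24.5 ± 9.82 (adjusted p = 0.0155). Among basal squamous genes, 10 of 22 fell and 1 rose (median -0.37), with S100A2, a calcium-binding protein of basal cells, at 438 ± 14.4 before and 180.0 ± 13.7 after (adjusted p = 0.000202). Of 14 other lineage factors, 5 rose and 4 fell (median 0.05). FOXA1 and TFAP2C, which were among those that rose, had SDs of 43.0 and 22.7 between the replicates. Differentiation genes gave 2 rises and 4 falls of 13 (median 0.16), with TGM1 down to 7.20 ± 0.141. Of 5 mesenchymal factors SNAI2 fell, to 21.3 ± 1.88 (adjusted p = 0.00037), and SNAI1 rose. Without replicate 1 the counts higher and lower were 2 and 8 for basal squamous genes, 5 and 3 for other lineage factors (median -0.13), 3 and 4 for differentiation genes and 1 and 1 for mesenchymal factors.

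The overexpression libraries addressed what METTL4 or RP11-390F4.3 did without hypoxia. In METTL4-OE cells 4 factors fell (GRHL1, KLF4, ELF3 and EHF), 1 rose (OVOL1) and 4 of the 9 tested were not called. Of all 15644 genes, 8.3% were called higher and 11.1% lower. The median change of the 9 factors was -0.19, against 0.01 for all genes.

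ELF3 had the largest fall of the 9. It was 90.7 and 96.6 with the control vector and 31.5 and 31.9 in METTL4-OE, a 2.96-fold difference with closely matched replicates (log2 change -1.53 ± 0.06 SE, adjusted p = 1.67e-10). EHF was 12.4 and 14.1 with the vector and 7.85 and 7.11 in METTL4-OE (log2 change -0.74 ± 0.09 SE, adjusted p = 2.26e-05). So both epithelial ETS factors fell here, whereas in hypoxia EHF rose.

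GRHL1 was 8.44 and 9.03 with the vector and 5.52 and 5.44 in METTL4-OE (log2 change -0.59 ± 0.10 SE, adjusted p = 0.000494). KLF4 was 14.5 and 16.5 with the vector and 11.03 and 11.01 in METTL4-OE (log2 change -0.45 ± 0.08 SE, adjusted p = 0.000766). OVOL1 went up from 2.39 and 2.47 to 3.98 and 3.35 (log2 change 0.44 ± 0.15 SE, adjusted p = 0.03), a call that DESeq2 on whole reads did not make. Each of these groups was separate from its control. Without vector replicate 2 the change of KLF4 was -0.37, and without METTL4-OE replicate 1 that of OVOL1 was 0.35, neither of them called.

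The remaining factors were not called. TP63 was 227 and 206 with the vector and 221 and 222 in METTL4-OE, and KLF5 was 128 and 108 against 120.2 and 119.8. GRHL2 was 169 and 173 against 152 and 153, a difference of -0.17 ± 0.04 SE on the log2 scale that had an adjusted p of 0.0091 but was under 1.3-fold. OVOL2 was 4.63 and 4.93 against 4.17 and 3.99. GRHL3, which was below the minimum for a test in this table, was 0.76 and 0.93 with the vector (16 and 20 reads) and 0.25 and 0.14 in METTL4-OE (5 and 3 reads).

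In RP11-390F4.3-OE cells the pattern was different: 6 of the 9 factors rose (TP63, GRHL1, OVOL1, KLF4, KLF5 and EHF), 1 fell (ELF3), and GRHL2 and OVOL2 were not called. The vector libraries are those METTL4-OE was compared with. Of all genes, 16.8% were called higher and 12.8% lower. The median change of the 9 factors was 0.84, against 0.01 for all genes.

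EHF again had the largest change of the 9, with 42.6 and 46.0 against 12.4 and 14.1 with the vector (log2 change 1.67 ± 0.09 SE, adjusted p = 5.17e-09). TP63 was 393 and 384 against 227 and 206 (log2 change 0.84 ± 0.05 SE, adjusted p = 1.18e-08). GRHL1 was 17.2 and 19.6 against 8.44 and 9.03 (log2 change 0.99 ± 0.10 SE, adjusted p = 3.25e-06). Both libraries of RP11-390F4.3-OE lay above both vector libraries for these genes.

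OVOL1 was 5.27 and 7.20 against 2.39 and 2.47 (log2 change 1.07 ± 0.15 SE, adjusted p = 4.62e-05). KLF4 was 31.4 and 33.3 against 14.5 and 16.5 (log2 change 1.02 ± 0.08 SE, adjusted p = 3.75e-07). KLF5 rose less, to 163 and 155 from 128 and 108 (log2 change 0.43 ± 0.07 SE, adjusted p = 9.39e-05), and with median-centred libraries its change was 0.35, and without vector replicate 2 it was 0.31, both under 1.3-fold.

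ELF3 fell to 65.3 and 69.8 (log2 change -0.47 ± 0.06 SE, adjusted p = 1.32e-05). GRHL2 was 137 and 143, lower by 0.29 ± 0.04 SE on the log2 scale but by less than 1.3-fold (adjusted p = 0.000116). OVOL2 at 5.84 and 4.28 and GRHL3 at 0.56 and 0.81 overlapped with the vector libraries. Without RP11-390F4.3-OE replicate 2, the library with the higher sum of breast markers, the changes of the 7 called factors ran from -0.51 for ELF3 to 1.62 for EHF and were called as before.

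**Figure D2:**
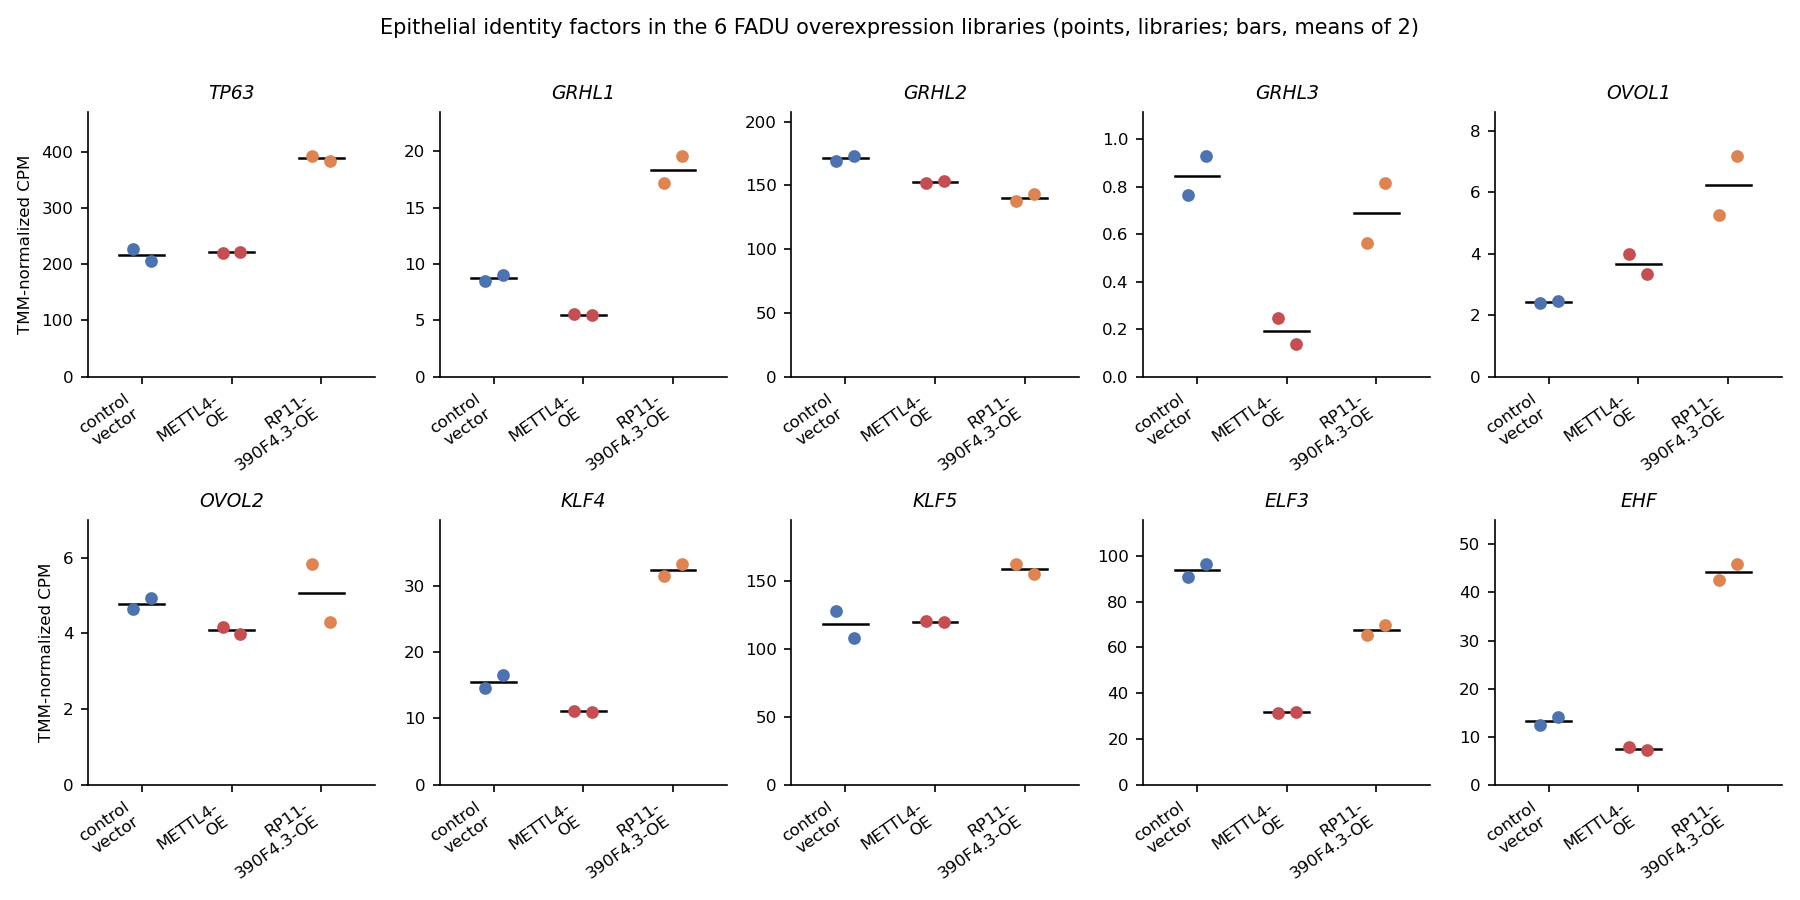
Values (TMM-normalized CPM, linear axes from 0) of the 10 factors in the 6 normoxic FADU overexpression libraries, with points for libraries and bars for the means of 2. GRHL1, KLF4 and EHF lay below the vector libraries in METTL4-OE and above them in RP11-390F4.3-OE, and ELF3 was lowest in METTL4-OE at 31.5 and 31.9.

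The direct comparison of both transfectants tested that difference. In RP11-390F4.3-OE, 7 of the 9 factors were higher than in METTL4-OE (TP63, GRHL1, OVOL1, KLF4, KLF5, ELF3 and EHF), against 18.8% of all genes higher and 13.6% lower. OVOL2 was not called, and GRHL2 was lower by 0.12 ± 0.04 SE on the log2 scale (adjusted p = 0.0337), which is under 1.3-fold. Their median was 0.81, against 0.00 for all genes. EHF was 5.92-fold higher (log2 change 2.42 ± 0.09 SE, adjusted p = 1.59e-10), GRHL1 3.36-fold (1.58 ± 0.10 SE, adjusted p = 3.23e-08) and KLF4 2.94-fold (1.47 ± 0.08 SE, adjusted p = 1.01e-08). ELF3, lower than the vector in both, was 2.13-fold higher in RP11-390F4.3-OE than in METTL4-OE (1.07 ± 0.06 SE, adjusted p = 4.32e-09). GRHL3 stood at 14 and 19 reads against 5 and 3. RP11-390F4.3 RNA itself differed little between these cells (log2 difference 0.16 ± 0.08 SE, adjusted p = 0.0827), while METTL4 was 5.02-fold lower in RP11-390F4.3-OE. Without RP11-390F4.3-OE replicate 1 the difference of KLF5 was 0.37 and was not called, and without replicate 2 that of OVOL2 was 0.43 and was.

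In METTL4-OE, 12 of 23 junction and polarity genes fell (median -0.39), CLDN4 from 31.9 ± 1.84 to 11.9 ± 1.88 (adjusted p = 7.11e-08) and CGN from 13.0 ± 0.961 to 5.39 ± 0.251 (adjusted p = 3.59e-06). In RP11-390F4.3-OE, 3 of these 23 rose and 6 fell (median 0.04), and CLDN4 stood at 38.3 ± 1.79. Of 13 differentiation genes, 10 fell and 1 rose in METTL4-OE (median -0.68), whereas 5 rose and 5 fell in RP11-390F4.3-OE (median -0.11). KRT4, a keratin of mucosal epithelia, fell in both, from 34.0 ± 2.93 with the vector to 4.01 ± 0.0942 in METTL4-OE and 2.31 ± 0.662 in RP11-390F4.3-OE. Of 22 basal squamous genes, 5 rose and 9 fell in METTL4-OE (median -0.01), and 8 rose and 5 fell in RP11-390F4.3-OE (median 0.31). Of 14 other lineage factors, 1 rose and 4 fell in METTL4-OE (median -0.30), and 4 rose and 2 fell in RP11-390F4.3-OE (median 0.27). GATA3 was among those 4 and differed widely between the replicates (SD 9.58). Of 5 opposing mesenchymal factors 4 rose in each, with SNAI2 going from 30.3 ± 1.07 to 71.7 ± 2.67 in METTL4-OE (adjusted p = 2.92e-09) and to 40.3 ± 1.65 in RP11-390F4.3-OE (adjusted p = 8.54e-05). Without RP11-390F4.3-OE replicate 2 the counts higher and lower than the vector were 3 and 5 for junction and polarity genes, 5 and 5 for differentiation genes, 8 and 5 for basal squamous genes and 3 and 1 for other lineage factors, and 4 mesenchymal factors rose.

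The mutant libraries addressed METTL4 with a changed catalytic motif in hypoxic FADU cells. The values are ratios of each clone to the 1 control library. A limma fit left 1 residual degree of freedom, in which the lone control is assumed to vary like the clones, and it called the same 5 factors that are named next (adjusted p = 0.125 for TP63 and from 0.000441 to 0.0207 for the other 4). All 9 listed factors lay on the same side of the control in both clones. Past 1.3-fold in the mean log2 ratio were EHF above and TP63, GRHL1, KLF4 and ELF3 below, while of all 15719 genes 13.2% were past it above and 16% below. The median of the 9 factors was -0.20, against 0.00 for all genes. This comparison has no replicate of the control, so a difference between that line and both clones cannot be told apart from the mutation.

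ELF3 was 56.9 in the control, 22.1 in clone 1 and 23.9 in clone 2, log2 ratios of -1.32 and -1.22. KLF4 stood at 7.90 in clone 1 and 4.94 in clone 2 against 13.6, ratios of -0.72 and -1.30. GRHL1 stood at 3.58 and 4.88 against 8.71, ratios of -1.08 and -0.72. For these genes the distance of the clones to the control was larger than the distance between the clones.

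EHF was 11.4 in the control, 42.0 in clone 1 and 20.0 in clone 2, log2 ratios of 1.80 and 0.76, so the clones lay further from each other than clone 2 lay from the control. TP63 reached 127 and 112 against a control value of 156, log2 ratios of -0.30 and -0.47, of which that of clone 1 was under 1.3-fold. The values of the other 4 stayed within 1.3-fold in the mean: GRHL2 at 85.5, 94.0 and 92.1, KLF5 at 79.1, 77.9 and 71.3, OVOL1 at 2.70, 3.55 and 3.41, and OVOL2 at 2.09, 1.58 and 1.82 in the control, clone 1 and clone 2. METTL4 RNA, which the mutation was not designed to remove, was 12.5, 15.9 and 10.6.

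Beside these factors, 7 of 22 basal squamous genes were past 1.3-fold below the control (median -0.27), KRT17 at 67.1 ± 17.8 in the clones against 135. Of 23 junction and polarity genes 6 were below (median -0.23), CDH1 at 139 ± 0.721 against 256, and of 12 differentiation genes 6 were below (median -0.46), TGM1 at 3.81 ± 0.204 against 9.92. Of 14 other lineage factors, 5 were below and 1, SOX15, above (median -0.18).

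BFTC909 cells offered the same knockdown design in a second line, but 6 of the 10 factors were not among the listed genes: GRHL2, GRHL3, OVOL1, OVOL2, ELF3 and EHF. Among the genes that were listed, the lowest read count in the second-highest library was 9. TP63 was listed at 0.36 and 0.21 in normoxia (8 and 5 reads), 0.29 and 0.24 in hypoxia (6 and 5 reads) and 1.08 and 0.81 in the libraries labelled METTL4-si (23 and 16 reads), under the minimum for a test. On the other side, ZEB1 was between 90.9 and 149 and ZEB2 between 40.4 and 71.7 in these libraries, against 1.05 to 1.74 and 0.31 to 0.87 in the FADU knockdown libraries. The tables of both lines were normalized separately, so these levels are set side by side as a description.

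With hypoxia in BFTC909 cells, 1 of the 3 tested factors rose (KLF5) and 1 fell (GRHL1), against 19.5% of all 14869 genes higher and 19.2% lower. GRHL1 was 3.63 and 3.40 in normoxia and 1.59 and 1.19 in hypoxia, a 2.52-fold fall (log2 change -0.92 ± 0.27 SE, adjusted p = 0.0292). KLF5 was 17.0 and 17.2 in normoxia and 24.4 and 20.9 in hypoxia (log2 change 0.38 ± 0.10 SE, adjusted p = 0.0182), a change that stayed under 1.3-fold without normoxia replicate 1 (0.37) or hypoxia replicate 1 (0.27). Without hypoxia replicate 2 the fall of GRHL1 (-0.80) was not called. KLF4 was 8.59 and 8.68 in normoxia and 10.2 and 10.9 in hypoxia, which did not overlap but was not called (adjusted p = 0.274).

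In the BFTC909 libraries labelled METTL4-si, 2 of the 3 rose against hypoxic Scr-si (GRHL1 and KLF4) and KLF5 fell, with 15.7% of all genes called higher and 12.9% lower. GRHL1 was 3.94 and 8.31 against 1.59 and 1.19 (log2 change 1.51 ± 0.27 SE, adjusted p = 0.00615). KLF4 was 15.1 and 23.1 against 10.2 and 10.9 (log2 change 0.77 ± 0.18 SE, adjusted p = 0.0167). KLF5 was 16.4 and 16.9 against 24.4 and 20.9 (log2 change -0.42 ± 0.10 SE, adjusted p = 0.0181).

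For GRHL1 and KLF4 the higher value came from replicate 2, the library with GATA3, and its part in these results was not tested. Without that library the changes were 1.05 for GRHL1, 0.48 for KLF4 and -0.44 for KLF5 on the log2 scale, each past 1.3-fold. Without Scr-si hypoxia replicate 1 the change of KLF5 was -0.31 and was not called.

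Of the related lists in BFTC909 cells, 9 of 24 junction and polarity genes could be tested. In hypoxia 1 rose and 1 fell, and in the libraries labelled METTL4-si 4 rose and 1 fell (median 0.99). CDS1, which is on this list, is a lipid synthesis enzyme that is high in epithelia and not a junction protein. It was the gene that fell with hypoxia, from 10.5 ± 0.746 to 4.17 ± 0.45 (adjusted p = 0.00125). In the libraries labelled METTL4-si it was among the 4 that rose, to 14.6 ± 3.20 (adjusted p = 0.00053). Of 7 other lineage factors tested, 1 rose and 3 fell in hypoxia (median -0.31) and 4 rose in the libraries labelled METTL4-si (median 0.48). PPARG, a nuclear receptor of urothelial differentiation, fell from 27.1 ± 1.58 to 10.8 ± 0.201 and then stood at 21.3 ± 1.26. Of 6 opposing mesenchymal factors, SNAI1 and ZEB2 rose and SNAI2 fell in hypoxia. In the libraries labelled METTL4-si, SNAI1 fell from 16.8 ± 1.15 to 3.80 ± 0.534 (adjusted p = 0.000297) and ZEB1 rose. Of 11 basal squamous genes, 5 rose and 3 fell in hypoxia (median 0.12), and 4 rose and 2 fell in the libraries labelled METTL4-si (median 0.22). Of 4 differentiation genes, MUC1 and PPL rose in hypoxia (median 0.66), and FLG, which encodes filaggrin, fell in the libraries labelled METTL4-si (median -0.01). Without METTL4-si replicate 2, the library with GATA3, 4 junction and polarity genes rose and 2 fell, and their median was 0.14. The counts higher were then 4 for other lineage factors, 3 for basal squamous genes and 1 for mesenchymal factors, and 2 of the 4 differentiation genes fell (median -0.57).

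The difference between the lines was tested directly, as the change in BFTC909 minus the change in FADU over all 12 knockdown libraries. The hypoxia responses of GRHL1 differed by -1.75 ± 0.41 SE on the log2 scale (adjusted p = 0.0122), since GRHL1 rose in FADU and fell in BFTC909 cells. Those of KLF5 differed by 0.45 ± 0.13 SE (adjusted p = 0.0341), or by 0.34, which was not called, without BFTC909 Scr-si hypoxia replicate 1, and those of KLF4 by -0.31 ± 0.26 SE (adjusted p = 0.429). For this difference, 15.1% of all 13595 genes were called higher and 15.9% lower.

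For the libraries labelled METTL4-si, the changes of GRHL1 differed by 1.50 ± 0.41 SE between the lines (adjusted p = 0.0244), with 0.01 in FADU and 1.51 in BFTC909 cells. Of all genes, 18.5% were called higher and 12.7% lower. The changes of KLF4 differed by 0.17 ± 0.26 SE and those of KLF5 by -0.01 ± 0.13 SE, differences that were not called (adjusted p = 0.671 and 0.956). With the 3 libraries that carried other markers left out, the differences for GRHL1 were -1.78 and 1.37, and the hypoxia difference for KLF4 was -0.41 and was called (adjusted p = 0.0364).

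**Figure D3:**
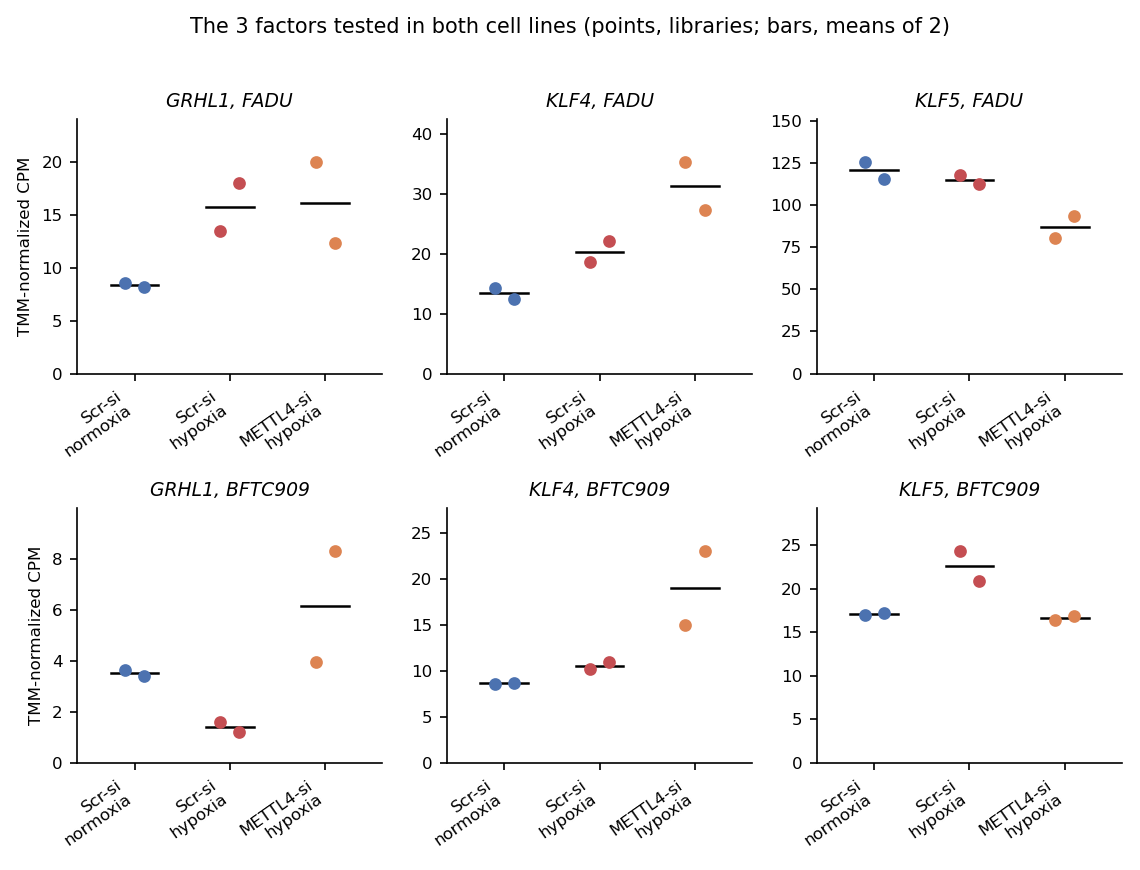
Values of GRHL1, KLF4 and KLF5 in the 6 FADU and the 6 BFTC909 knockdown libraries (TMM-normalized CPM, each table normalized on its own), with points for libraries and bars for the means of 2. GRHL1 went from 8.56 and 8.17 up to 13.5 and 18.1 with hypoxia in FADU and from 3.63 and 3.40 down to 1.59 and 1.19 in BFTC909 cells.

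Levels of different genes were set side by side per length of their exons, as a description. The length is that of all annotated exons of a gene joined, over every transcript. A gene with many exons outside its expressed transcripts is therefore understated, and the order depends on the annotation. Per kb of exon, KLF5 at 32.8 ± 1.98 (SD, n = 2), GRHL2 at 27.3 ± 0.0587 and TP63 at 26.8 ± 0.98 led in normoxic FADU cells, and the values of GRHL2 and TP63 differed by less than the SD of TP63. ELF3 followed at 13.9 ± 0.425, then KLF4 at 3.65 ± 0.379, OVOL2 at 2.45 ± 0.0288, EHF at 1.49 ± 0.141, GRHL1 at 1.05 ± 0.0342, OVOL1 at 0.743 ± 0.154 and GRHL3 at 0.232 ± 0.0167. In hypoxia TP63 led at 42.6 ± 2.26 and EHF came to 5.04 ± 0.092, close to KLF4 at 5.55 ± 0.679. In RP11-390F4.3-OE the order was led by TP63 at 51.9 ± 0.922 and KLF5 at 43.3 ± 1.40, with EHF at 6.69 ± 0.368. In normoxic BFTC909 cells KLF5 led at 4.65 ± 0.0449, followed by KLF4 at 2.36 ± 0.0174, GRHL1 at 0.442 ± 0.0202 and TP63 at 0.038 ± 0.014.

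The genes whose pattern was most like that of a factor were sought for the 4 factors listed in both lines, by Pearson's r over the 18 libraries of the replicated tables, each gene centred within its table, among 9674 genes. These libraries share controls and lines, so r is a description. For TP63 they were MARCHF8 (r = 0.949), VAMP4 (0.944) and NCK1 (0.938), and for KLF4 they were IFI27 (0.950), MFGE8 (0.944) and EML2 (0.936). For GRHL1 they were TDRKH (0.919), PLEKHH1 (0.916) and VMP1 (0.914), and for KLF5 TCEAL9 (0.888), EHD2 (0.858) and S100A2 (0.848).

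**Figure D4:**
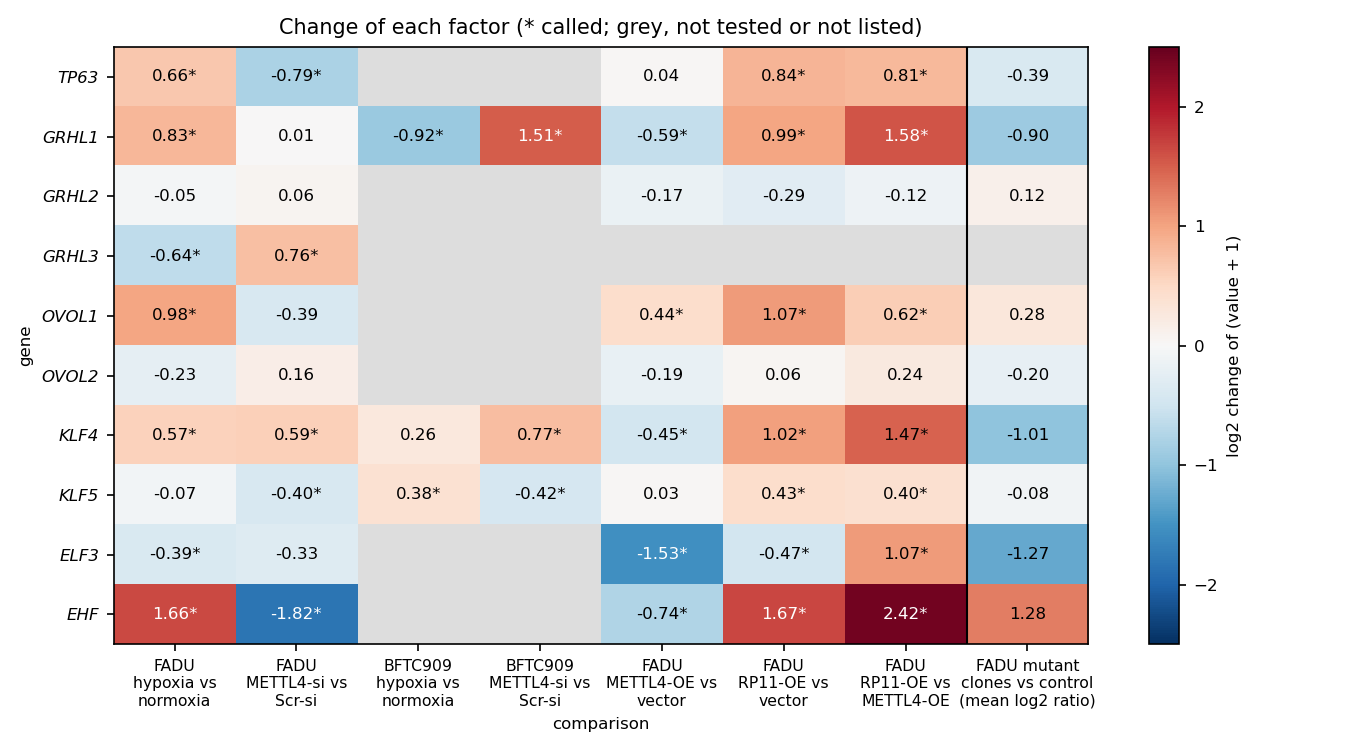
Log2 changes of the 10 factors (rows) in the 7 tested comparisons and the mean of the 2 mutant clones (columns), in colour from blue (lower) to red (higher), RP11-OE standing for RP11-390F4.3-OE, with an asterisk for a call and grey where a gene was not listed or not tested. EHF had 1.66 in FADU hypoxia and 1.67 in RP11-390F4.3-OE, and the column of the libraries labelled METTL4-si held -1.82 for it.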

How the data were processed

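RNA was sequenced after ribosomal RNA depletion. According to the study's methods and processing notes, reads were trimmed with Trim Galore, aligned to hg19 with HISAT2, counted with HTSeq and normalized by edgeR's TMM method. Versions, annotation and strand setting were not given in the sources used here. The authors deposited these normalized CPM values (a signal per gene), which are not raw counts. In the 3 replicated tables whole reads could be recovered, between 19.0 and 25.4 M on genes per library. Features outside genes, 40.9 to 43.0% of the mutant columns, were left out. Further deposited tables hold the authors' own fold changes and p-values and were not used.

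Of the identifiers, 18887, 16721, 17763 and 15308 of the FADU knockdown, BFTC909 knockdown, overexpression and mutant tables were found in GENCODE v44 on GRCh37. Values were tested with limma 3.58.1 (trend) in R 4.3.3 on log2(value + 1), so fold changes of low genes are understated. Genes needed a value of 1 or more in at least 2 libraries. Groups of a table shared 1 spread. Adjusted p-values are Benjamini-Hochberg values over all genes tested, and ratios in the text are of mean values. The members and lists were chosen with earlier results of these data known. All 10 members were described, and of each list 2 called genes per direction with a mean of at least 5 and the largest change could be named. Other list genes named beside a count were chosen after their values were seen. CA9, an induced gene of hypoxia, METTL4 and RP11-390F4.3 were label checks. edgeR 4.0.16 and DESeq2 1.42.0 on whole reads, other pseudocounts, filters, scaling, a replicate block and left-out libraries were alternatives; list counts without the libraries with other markers were added after seeing the data. The fits were tested on simulated data. Replicates differed by more than sampling noise (chi-square per degree of freedom 2.06 to 28.3). With 2 libraries a group, an exact permutation test cannot pass 0.05. Values of some list genes are not reported here.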

Additional observations from a re-analysis of the deposited data

Results flagged for a closer look

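The responses of the FADU and BFTC909 lines differed by a direct test for GRHL1 and KLF5. The hypoxia response of GRHL1 was lower in BFTC909 than in FADU cells by -1.75 on the log2 scale (adjusted p = 0.0122). Both hypoxic libraries lay above both normoxic ones in FADU cells and below both in BFTC909 cells. The hypoxia response of KLF5 was higher in BFTC909 cells by 0.45 (adjusted p = 0.0341), from 0.38 in BFTC909 and -0.07 in FADU cells. The change of GRHL1 in the libraries labelled METTL4-si was higher in BFTC909 cells by 1.50 (adjusted p = 0.0244).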

How the results depend on the processing

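Over the alternatives, 1019 values of single factors kept their side of the threshold (for the mutants, moved by less than 1 SD). Some of these changed direction below it, as GRHL1 in FADU METTL4-si, from -0.32 to 0.34 with 1 library left out. Another 38 fell below the threshold, 7 passed it and 6 mutant ratios moved by more. Of the counts of called factors, 11 moved by more than 1.5 times. No called change reversed. With a pseudocount of 5, 1 of 3 factors was called in BFTC909 hypoxia instead of 2, and 3 of 9 in METTL4-OE instead of 5. With a mean value of at least 5, which removed GRHL1 from the BFTC909 tests, 1 was called in BFTC909 hypoxia, 1 for the difference in hypoxia responses instead of 2, and 0 of 2 tested by limma for the METTL4-si difference instead of 1. With 1 library left out at a time, some calls were lost or gained, several of them named above. A lone library was then assumed to vary like the other groups. For the mutant clones, 4 to 5 factors were past 1.3-fold over the alternatives. For pseudocounts, filters, the replicate block and the mutant alternatives, the shares of all genes called are not given. Whether calls moved likewise over all genes was not tested. edgeR called 6 and 5 and DESeq2 6 and 5 in the FADU knockdown comparisons, and the cause of the lost calls was not tested. With edgeR, 14.4% of all genes were called higher and 12.1% lower in hypoxia, and 16.8% and 17.8% in METTL4-si. With DESeq2 the shares were 11.4% and 10.5% in hypoxia, and 14.2% and 15.8% in METTL4-si.

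Replicate differences of the groups correlated at 0.648 for FADU normoxia and METTL4-si hypoxia, the 2 groups whose replicate 1 carried luminal breast markers. The reason for this correlation was not tested. Other pairs of groups lay between -0.0652 and 0.154, so replicate numbers did not pair the samples across all groups. With the replicate number as a block, 7, 5, 2, 3, 5, 7 and 7 factors were called in the 7 comparisons within a table and 2 and 1 for the line differences, as without it.

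Depth limits the factors near 1, above all GRHL3 and, in BFTC909 cells, TP63, whose values rest on 3 to 43 reads. GRHL1 was also low in hypoxic BFTC909 Scr-si cells, at 33 and 25 reads.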

Other observations

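Relatives of the factors in the KLF and ETS families, which are not restricted to epithelia, also moved. KLF6, an immediate early Krüppel-like factor, went from 17.7 ± 0.221 (SD, n = 2) with the control vector to 43.3 ± 0.916 in METTL4-OE (adjusted p = 1.47e-09) and 94.4 ± 1.39 in RP11-390F4.3-OE (adjusted p = 1.65e-12). In both mutant clones it was below the control, at 37.7 ± 1.58 against 61.1. ETS1 rose from 68.9 ± 0.182 to 227 ± 3.91 in METTL4-OE (adjusted p = 4.06e-11), and ETS2 from 52.6 ± 0.339 to 143 ± 2.89 in RP11-390F4.3-OE (adjusted p = 3.9e-11). Of the 15 family relatives tested in FADU cells, 5 rose with hypoxia (median 0.08) and 7 fell in the libraries labelled METTL4-si (median -0.33), ETS1 and KLF6 being in both counts. Without METTL4-si replicate 1, 7 of 13 fell (median -0.48), and without normoxia replicate 1, 4 of 13 rose with hypoxia. In BFTC909 cells KLF2 fell with hypoxia from 42.5 ± 0.26 to 11.8 ± 0.54 (adjusted p = 2.18e-05), and KLF9 rose from 4.08 ± 0.701 to 11.3 ± 0.272 (adjusted p = 0.000342).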
